A study of Mus musculus with 6 samples.

Results

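10 genes of the hormone-controlled salt and water handling of the collecting duct were followed in ureteric bud cells of embryonic mouse kidneys, with and without Dicer. They are the vasopressin receptor Avpr2, the epithelial sodium channel subunits Scnn1a, Scnn1b and Scnn1g, and the aldosterone system genes Nr3c2, Hsd11b2, Sgk1 and Nedd4l. The sodium pump regulator Fxyd4 and the transcription factor Tfcp2l1 complete the set. The genes were chosen by name with earlier results of these data known. All 10 were measured, out of 19296 genes on the arrays. Each had a single probe set, so no choice between probe sets was involved, and none was lost to a filter because none was applied.

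The data comprise 6 Affymetrix whole-transcript arrays, 3 from control and 3 from Dicer mutant kidneys at E15.5. Mutant cells had the genotype Dicerc/-; Hoxb7Cre; Rosa26YFP: a conditional Dicer allele over a null one, a Cre transgene driven from Hoxb7 in the ureteric bud and its derivatives, and a YFP reporter. Controls are labelled wild type, with no word on the transgenes. Cells of both groups were trypsinized and sorted on YFP, which would need the reporter in controls too. Whether controls carried the Cre is not stated, so from the labels a Cre effect and a Dicer effect cannot be told apart. Both groups had a mixed strain background. The null allele is present in every cell of a mutant embryo, whereas the Cre acts in the bud, so effects arising in neighbouring tissue are not separated from those in the sorted cells. The labels call the replicates biological but do not say how many embryos went into each, so p-values reflect only the spread among these 6 samples, which may be technical.

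Array medians ran from 7.47 to 7.54 (log2). Dicer1 itself had values of 10.31, 10.38 and 10.25 on the control arrays and 9.80, 9.72 and 9.64 on the mutant arrays, 66.3% of the control signal (limma, adjusted p = 0.0005). Which of its probes lie in deleted exons is not known here. The bud markers Cdh1 and Epcam were bright in both groups, at means of 11.82 and 11.57 in control cells and 11.86 and 11.46 in mutant cells. Of the 10 bud markers, 1 rose, 4 fell and 5 did not pass. All 10 lay above the median of all probe sets, where 39.6% of all genes passed (limma, adjusted p under 0.05). Wnt9b had a log2 fold change of 1.42, and Hoxb7, Gata3, Krt8 and Calb1 had values of -0.40 to -0.24. The Calb1 call was lost in 5 fits with an array left out. Over all genes, 11.8% were called higher and 13.9% lower. Of 63 measured markers of other cell types, 5 rose and 15 fell, and 16 lay above the median of all probe sets, 7.52. Six2, a nephron progenitor gene, changed most among them, from 7.05 ± 0.21 to 10.34 ± 0.06 (SD, n = 3 each). The table holds no detection call, so no marker can be called absent.

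In the collecting duct, vasopressin acts through Avpr2 and cyclic AMP to bring water channels to the cell surface. Aldosterone enters principal cells and binds the mineralocorticoid receptor, encoded by Nr3c2, while the enzyme encoded by Hsd11b2 inactivates glucocorticoids that would otherwise occupy that receptor. The activated receptor raises transcription of Sgk1, a kinase that phosphorylates the ubiquitin ligase Nedd4l and so keeps it from removing the epithelial sodium channel (ENaC) from the membrane. Sodium that enters through ENaC leaves the cell through the Na,K-ATPase, whose activity Fxyd4 modulates. Tfcp2l1 is a transcription factor of the collecting duct epithelium. In the embryo the placenta regulates salt and water, and these genes are studied as signs of collecting duct differentiation.

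Promoter sequence was available for 7 of the 10 genes, as 12 windows of 250 bases before and 50 bases after a start of transcription (RefSeq, build GRCm38.p6). These windows were searched on both strands for a few motifs of the hormone pathways, chosen with the expression results known. The first sequence shown is the part of an Sgk1 window that matched the full steroid hormone response element, AGAACA and TGTTCT with 3 bases between them, at position -189 from the start. The next 2 are stretches of the Avpr2 window, because Avpr2 had the largest change: one with 2 copies of the half-site TGTTCT (reverse complement AGAACA) at positions -59 and -50, the other with the Tfcp2-family pattern, CCAG repeated after 6 bases, here read on the opposite strand as CTGG. The last is the Fxyd4 stretch with the same pattern. Capitals mark the matches, and each sequence is written 5′ to 3′ on the strand of its gene.
Sgk1, chr10:21993694-21993723, + strand: tgcggaaAGAACAGAATGTTCTcggagatt
Avpr2 half-sites, chrX:73892031-73892060, + strand: gctttgtgtgttTGTTCTgacTGTTCTtta
Avpr2 Tfcp2-family pattern, chrX:73892009-73892038, + strand: tgagctgcCTGGATGGAACTGGgctttgtg
Fxyd4 Tfcp2-family pattern, chr6:117937395-117937424, - strand: aggtaggaCCAGTTCCCTCCAGactgctgg

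The full element was found in 3 of all 32851 windows of that length in the table (0.00913%), 1 of which was this Sgk1 window. Sgk1 held more of the 12 windows than any other gene, so it had more chances of a match. The half-site alone, which overlaps the full element, was in 19.0% of all windows and in 4 of the 12, from Avpr2 and Sgk1. The Tfcp2-family pattern was in 3.44% of all windows and in 4 of the 12, from Avpr2, Fxyd4 and Sgk1. The cyclic AMP response element TGACGTCA, which 1.79% of all windows held, had 0 matches in the 12 windows. Its half-site TGACG was in 20.8% of all windows and in 2 of the 12, from Sgk1 and Tfcp2l1. The GATA motif AGATAA was in 11.2% of all windows and in 2 of the 12, both from Sgk1. A match describes the letters of the window and was not measured as binding.

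Of the 10 genes, 7 fell in the mutant cells, 1 rose and 2 did not pass the test (limma, adjusted p under 0.05 over all genes). Over all 19296 genes, 25.8% passed that test in either direction, 13.9% lower and 11.8% higher. The arrays of the 2 groups did not overlap for 9 of the 10 genes, 7 lower and 2 higher in the mutant; the shares of all genes were 42.5%, 24.1% and 18.3%. Among genes above the median brightness 39.6% passed, as did 5 of the 6 members there; among dimmer genes 11.9% passed, as did 3 of the 4 members. The median log2 fold change was -0.42 over the 10 genes and -0.05 over all genes. Because the 10 genes were chosen with earlier results of these data known, their counts beside these shares are a description. Avpr2, Fxyd4 and Sgk1 fell most, by 1.68-fold to 2.35-fold, whereas Scnn1b, Scnn1g, Hsd11b2 and Nr3c2 fell by 1.33-fold to 1.41-fold. In bulk samples such as these, fewer cells of a type and less RNA per cell cannot be told apart.

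**Figure D1:**
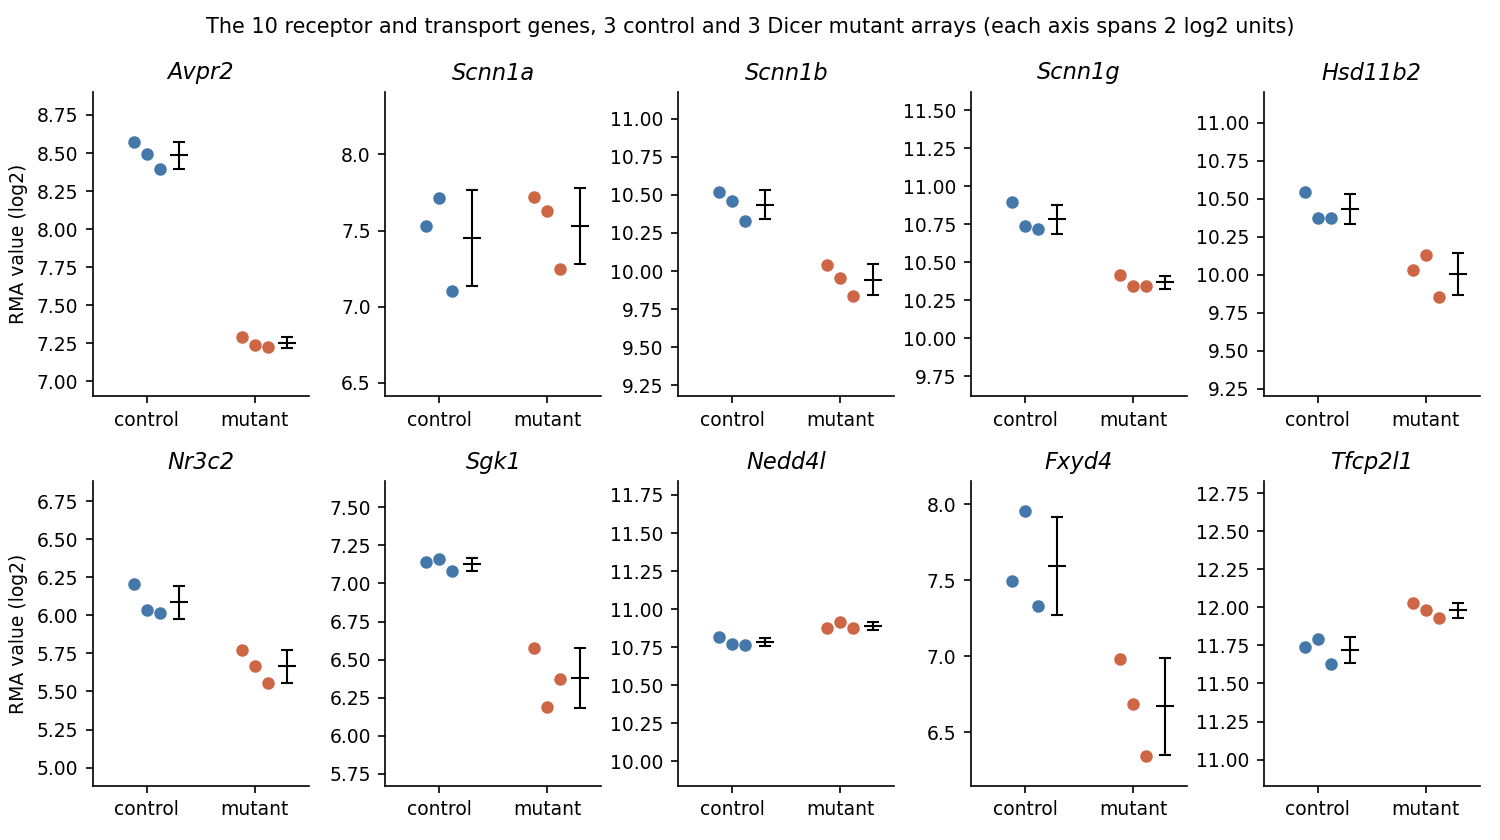
RMA expression values (log2) of the 10 genes on each of the 3 control arrays (blue) and 3 Dicer mutant arrays (orange), with the mean and SD of each group beside the points. For 7 genes all mutant points lie below all control points, for Nedd4l and Tfcp2l1 they lie above, and for Scnn1a the groups overlap.

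**Figure D2:**
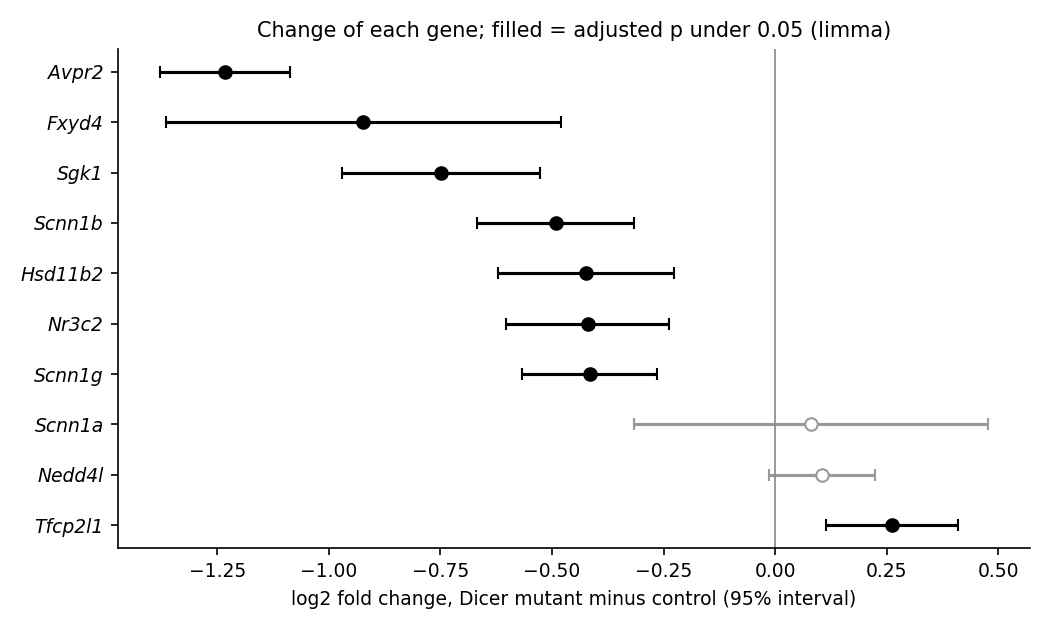
Log2 fold change (Dicer mutant minus control) of each gene with its 95% interval from limma. Filled points passed an adjusted p of 0.05: Avpr2 at -1.23 lies farthest from 0, Tfcp2l1 at 0.26 is the filled point above 0, and the open points are Scnn1a and Nedd4l.

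Avpr2, the receptor through which vasopressin raises cyclic AMP (probe set 10600310), fell most. It had log2 values of 8.57, 8.49 and 8.39 on the control arrays and 7.29, 7.24 and 7.23 on the mutant arrays. The mutant values were under 7.52, the median over the probe sets, in the dim range where RMA compresses changes. Every mutant array lay below every control array, and the gap between the groups, 1.10, was wider than the range within either of them, 0.18 and 0.07. The signal was 2.35-fold lower, a log2 fold change of -1.23 (standard error 0.06, 95% interval -1.38 to -1.09; limma, adjusted p = 2.56e-05). By fold change it ranked as the 30th lowest of the 19296 genes.

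The 5 genes whose values over the 6 arrays lay closest to those of Avpr2, by Euclidean distance after each gene was centred on its own mean, were S100a16, Rgn, Lurap1l, Cr2 and Ccdc106. Their distances ran from 0.14 for S100a16, a calcium-binding protein, to 0.21 for Ccdc106. S100a16 had values of 10.96, 10.84 and 10.90 in control cells and 9.75, 9.74 and 9.63 in mutant cells. Rgn, which encodes the calcium-binding protein regucalcin, had a log2 fold change of -1.24, and Cr2, a complement receptor, one of -1.19. These genes were picked for this likeness, so their changes are a description.

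Other genes of vasopressin signalling moved in both directions. Of 18 measured genes on that list, 5 rose, 2 fell and 11 did not pass, with a median log2 fold change of -0.03. Without mutant replicate 1, 3 were higher and 3 lower. Brighter genes, a class with 39.6% called, made up 11 of the 18. The others were dimmer, a class with 11.9% called. Adcy3, an adenylyl cyclase that makes cyclic AMP, rose 1.88-fold from 8.24 ± 0.08 to 9.15 ± 0.12 (SD, n = 3 each; limma, adjusted p = 0.000169). Prkar2b, a regulatory subunit of protein kinase A, rose 1.48-fold, and Akap7, an anchoring protein of that kinase, rose 1.23-fold. The basolateral water channels Aqp3 and Aqp4 fell 1.71-fold and 1.31-fold.

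Aqp2, the water channel that vasopressin moves to the apical membrane, was named after its values were seen. Its values were 7.75, 7.58 and 7.33 in control cells and 7.27, 7.39 and 7.36 in mutant cells. The groups overlapped, and its log2 fold change of -0.21 did not pass (limma, adjusted p = 0.174). Adcy6, the cyclase most often tied to vasopressin in the collecting duct and also named after its values were seen, had a log2 fold change of -0.15 (limma, adjusted p = 0.0815).

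The 3 subunits of ENaC, which together form the channel that takes up sodium from the urine, differed in their values. Scnn1b, the beta subunit (probe set 10557124), had log2 values of 10.52, 10.46 and 10.33 in control cells and 10.04, 9.96 and 9.83 in mutant cells. Its groups did not overlap, and it fell 1.41-fold (log2 fold change -0.49, standard error 0.08; limma, adjusted p = 0.00261). Scnn1g, the gamma subunit (probe set 10557111), had values of 10.89, 10.74 and 10.72 in control cells and 10.42, 10.34 and 10.35 in mutant cells. It fell 1.33-fold (log2 fold change -0.42, standard error 0.07; limma, adjusted p = 0.00276), again with all mutant arrays below all control arrays.

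Scnn1a, the alpha subunit that the channel needs to conduct (probe set 10541885), had values of 7.53, 7.72 and 7.10 in control cells and 7.72, 7.63 and 7.25 in mutant cells. The groups overlapped over most of their range. Its log2 fold change was 0.08 with a 95% interval from -0.32 to 0.48 (limma, adjusted p = 0.764), so a fall as large as that of Scnn1b lay outside the interval and smaller changes of either sign lay inside it. The direction turned without control replicate 3 (-0.093) and without mutant replicate 1 (-0.013). Its SD of 0.31 between control arrays was higher than that of 98.5% of all genes, so the estimate is less precise than those of the other subunits.

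Scnn1g and Scnn1b are neighbours on chromosome 7 in RefSeq, on the same strand, with 0 other genes wholly between them. Their sequences upstream of the annotated gene are shown because the pair moved together; CG dinucleotides are in capitals, 14 in 191 bases for Scnn1g and 7 in 250 bases for Scnn1b.
Scnn1g, chr7:121734229-121734419, + strand: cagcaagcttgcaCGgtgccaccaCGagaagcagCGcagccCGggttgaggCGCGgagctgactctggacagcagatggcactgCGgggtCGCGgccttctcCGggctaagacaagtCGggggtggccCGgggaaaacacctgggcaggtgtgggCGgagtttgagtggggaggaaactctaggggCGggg
Scnn1b, chr7:121864788-121865037, + strand: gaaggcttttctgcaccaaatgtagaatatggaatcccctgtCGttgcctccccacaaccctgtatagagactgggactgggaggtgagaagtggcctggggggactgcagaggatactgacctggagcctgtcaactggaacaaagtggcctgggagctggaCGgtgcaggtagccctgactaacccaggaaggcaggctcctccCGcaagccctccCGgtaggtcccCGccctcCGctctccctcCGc

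Differences between 2 genes within an array were compared between the groups for 5 pairs, which shows whether the genes changed unequally; the size of such a difference on its own has no meaning, because probe sets differ in brightness. The difference Scnn1a minus Scnn1b was -2.99, -2.75 and -3.23 in control cells and -2.32, -2.33 and -2.59 in mutant cells. These did not overlap, with a change of 0.57 (two-sided exact permutation test, p = 0.1, the smallest that 3 against 3 arrays can give; 0.25 adjusted over the 5 pairs). Scnn1a minus Scnn1g changed by 0.50 with overlapping groups (exact p = 0.2, adjusted 0.333). Scnn1b minus Scnn1g changed by -0.08, from -0.35 ± 0.06 to -0.42 ± 0.07 (SD, n = 3 each; exact permutation p = 0.5, adjusted 0.625). No pair could pass a threshold of 0.05 in this design.

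**Figure D3:**
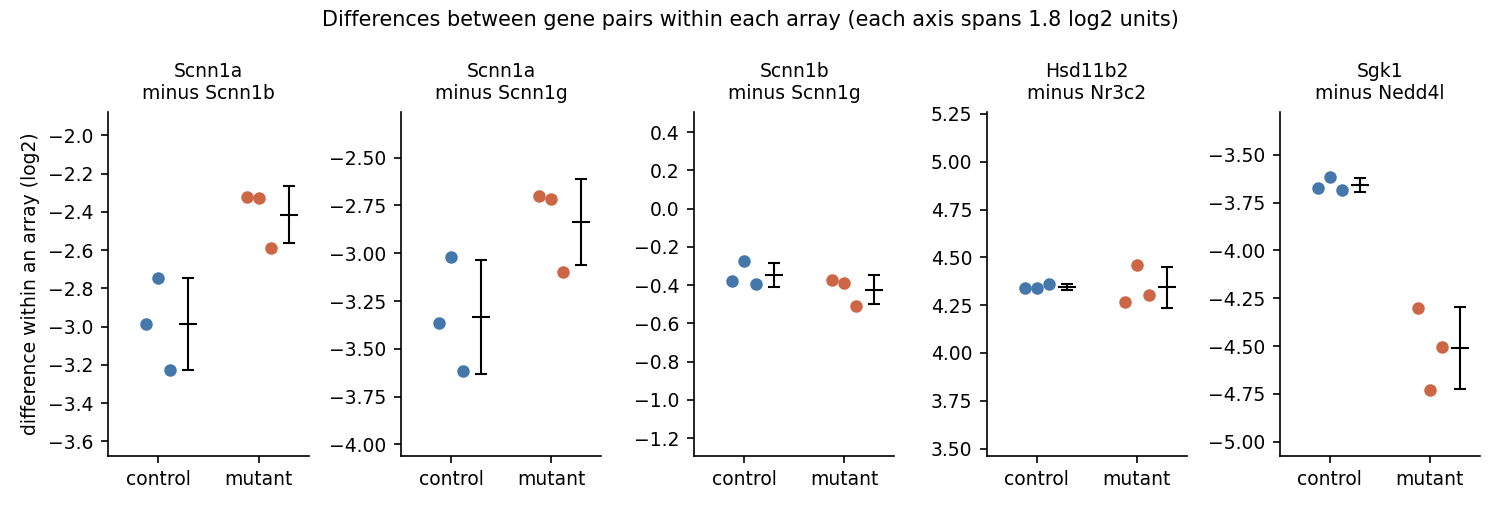
Difference of 2 genes within each array (log2), for 3 control (blue) and 3 Dicer mutant arrays (orange), with mean and SD beside the points. The groups are apart for Scnn1a minus Scnn1b, by 0.57, and for Sgk1 minus Nedd4l, by -0.85, and overlap for the other pairs.

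Genes that process or remove ENaC, listed together with the channels Cftr, Asic1 and Asic2, moved in both directions. Of 14 measured genes on that list, 5 rose, 2 fell and 7 did not pass, with a median log2 fold change of 0.09. Brighter genes, a class with 39.6% called, made up 10 of the 14, and the others were dimmer, a class with 11.9% called. Asic2 was among the genes that rose, and its call was lost in 3 fits with an array left out. Prss8, the membrane protease prostasin that activates ENaC, rose 1.27-fold from 11.21 ± 0.05 to 11.56 ± 0.09 (SD, n = 3 each; limma, adjusted p = 0.00604). Spint1, an inhibitor of such proteases, rose 1.42-fold, while the related inhibitor Spint2 fell 1.15-fold (limma, adjusted p = 0.0358). The Spint2 call was lost in each of the 6 fits with an array left out (adjusted p = 0.0513 to 0.115), which leaves 1 lower gene on the list. Cftr, the chloride channel, rose 1.35-fold from a low value of 4.79 ± 0.10 (SD, n = 3). Usp2, a deubiquitinase that acts on ENaC, fell 1.48-fold from 8.41 ± 0.06 to 7.84 ± 0.05 (SD, n = 3 each; limma, adjusted p = 0.000463).

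Nr3c2, the mineralocorticoid receptor (probe set 10572949), and Hsd11b2, the enzyme that protects it (probe set 10574780), fell by nearly the same amount in the deposited values. After quantile normalization their log2 fold changes were less alike, -0.34 for Nr3c2 and -0.44 for Hsd11b2. Nr3c2 had log2 values of 6.21, 6.04 and 6.01 in control cells and 5.77, 5.67 and 5.56 in mutant cells. All of these were under 7.52, the median over the probe sets, in the dim range where RMA compresses changes. It fell 1.34-fold (log2 fold change -0.42, standard error 0.08; limma, adjusted p = 0.00625), with no overlap between groups.

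Hsd11b2 had values of 10.54, 10.37 and 10.37 in control cells and 10.03, 10.13 and 9.86 in mutant cells, again with no overlap. It fell 1.34-fold (log2 fold change -0.42, standard error 0.09; limma, adjusted p = 0.00848). The difference Hsd11b2 minus Nr3c2 was 4.35 ± 0.01 in control and 4.34 ± 0.10 in mutant cells (SD, n = 3 each; exact permutation p = 1). Nr3c1, the glucocorticoid receptor, did not pass, at a log2 fold change of -0.08 (limma, adjusted p = 0.373); it was named after its values were seen.

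Sgk1, the aldosterone-induced kinase whose promoter stretch with the hormone response element is printed above (probe set 10362073), had values of 7.14, 7.16 and 7.08 in control cells. In mutant cells they were 6.58, 6.19 and 6.37, all below the control arrays. Like Nr3c2, Sgk1 had all its values under 7.52, in the dim range. It fell 1.68-fold (log2 fold change -0.75, standard error 0.10; limma, adjusted p = 0.00108). The spread was uneven: the SD was 0.04 in control cells and 0.20 in mutant cells. Sgk1 is also known as an early response gene, and in the same arrays 9 of 17 measured dissociation and immediate early genes fell and 0 rose, with a median log2 fold change of -0.40 (limma; at an unadjusted p under 0.05, 9 were lower and 1 higher). All 17 are among the brighter genes, of which 39.6% passed. The count was 6 lower without mutant replicate 1 or mutant replicate 3, and 8 lower and 2 higher without control replicate 3. The mean level of that list was 10.43 to 10.73 on the control arrays and 10.24 to 10.30 on the mutant arrays. Ier2, Egr1 and Junb, immediate early genes, had log2 fold changes of -0.62, -0.47 and -0.68. The part of this response in the Sgk1 value was not tested.

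Nedd4l, the ubiquitin ligase that Sgk1 restrains (probe set 10456254), was steady between arrays. Its values were 10.82, 10.77 and 10.76 in control cells and 10.88, 10.92 and 10.88 in mutant cells. The groups did not overlap, which was so for 42.5% of all genes, but the log2 fold change of 0.10 (95% interval -0.01 to 0.22) did not pass (limma, adjusted p = 0.183). The difference Sgk1 minus Nedd4l was -3.67, -3.62 and -3.68 in control cells and -4.30, -4.73 and -4.50 in mutant cells, a change of -0.85 with no overlap (exact permutation p = 0.1, the smallest possible; 0.25 adjusted over the 5 pairs).

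For other genes of the corticosteroid response, the share that passed in either direction was near that of all genes of like brightness. Every call on the list was higher, whereas over all genes 11.8% were called higher and 13.9% lower. Of 16 measured genes on the list, 12 of them among the brighter genes, of which 39.6% passed, 6 rose, 0 fell and 10 did not pass, with a median log2 fold change of 0.07; at an unadjusted p under 0.05, 7 were higher and 0 lower (limma). Edn1, the endothelin that restrains sodium uptake in the collecting duct, rose 2.03-fold from 6.91 ± 0.19 to 7.93 ± 0.15 (SD, n = 3 each; limma, adjusted p = 0.000508). Klf9, a transcription factor induced by corticosteroids, rose 1.95-fold from 7.32 ± 0.13 to 8.29 ± 0.10 (SD, n = 3 each). Sgk3, a relative of Sgk1, rose 1.43-fold. The standard corticosteroid targets Tsc22d3, Fkbp5 and Per1, named after their values were seen, did not pass, at log2 fold changes of -0.15, 0.06 and 0.25.

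Fxyd4, the corticosteroid hormone-induced factor that modulates the Na,K-ATPase (probe set 10547206), had the widest spread of the 10 genes. Its values were 7.49, 7.95 and 7.33 in control cells and 6.98, 6.68 and 6.35 in mutant cells. All its mutant values were under 7.52, in the dim range. The groups did not overlap, with a gap of 0.35 against ranges of 0.62 and 0.63 within them. It fell 1.90-fold (log2 fold change -0.92, standard error 0.19, 95% interval -1.36 to -0.48; limma, adjusted p = 0.00955). The fold change ran from -1.08 to -0.74 when single arrays were left out.

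Of 10 measured genes of the Na,K-ATPase and FXYD family other than Fxyd4, 2 fell, 0 rose and 8 did not pass, with a median log2 fold change of -0.15; at an unadjusted p under 0.05, 4 were lower and 1, Atp1b3, was higher (limma). With a variance trend and robust variances, 3 fell and 1 rose. This list held 4 brighter genes, a class with 39.6% called in the main fit. Its others were dimmer, a class with 11.9% called. Fxyd3, a regulator of the pump in other epithelia, fell 1.92-fold from 8.83 ± 0.05 to 7.89 ± 0.20 (SD, n = 3 each; limma, adjusted p = 0.000424). Atp1b2, a beta subunit of the pump, fell 1.20-fold. Atp1b1, the main beta subunit in the kidney and named after its values were seen, had a log2 fold change of -0.17 (limma, adjusted p = 0.0584).

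Kinases of the WNK pathway, which sets the balance of sodium and potassium transport downstream of aldosterone, moved both ways. Of 14 measured genes of the WNK pathway and distal ion transport, 4 rose, 3 fell and 7 did not pass. The median log2 fold change of this list was 0.04. It held 8 brighter genes, a class with 39.6% called, and its others were dimmer, a class with 11.9% called. Stk39, the kinase that WNK proteins activate, rose 1.48-fold from 9.74 ± 0.07 to 10.31 ± 0.06 (SD, n = 3 each), and Wnk1 rose 1.22-fold. Wnk4 and Wnk2 fell 1.37-fold and 1.29-fold. The potassium channel subunit Kcnj16 rose 1.60-fold, and Slc12a2, a sodium, potassium and chloride cotransporter, fell 1.20-fold; that last call was lost without control replicate 2, mutant replicate 1 or mutant replicate 3 (adjusted p up to 0.0766).

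Tfcp2l1 (probe set 10349295) was the member that rose. It had log2 values of 11.74, 11.79 and 11.63 in control cells and 12.03, 11.98 and 11.93 in mutant cells. The groups did not overlap, with a gap of 0.14, and the gene rose 1.20-fold (log2 fold change 0.26, standard error 0.06; limma, adjusted p = 0.019). This call was lost without mutant replicate 1 (adjusted p = 0.0793) and without mutant replicate 2 (adjusted p = 0.0581), while the fold change stayed between 0.22 and 0.30 in every fit with an array left out. Among the called members it had the highest adjusted p, and Nedd4l, at 0.183, was the nearest member that did not pass.

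For other transcription factors of the collecting duct, too, the share that passed in either direction was near that of all genes of like brightness. Every call on this list was lower, whereas over all genes 13.9% were called lower and 11.8% higher. Of 11 measured relatives of Tfcp2l1 and collecting duct factors, 9 of them above the median brightness, 4 fell, 0 rose and 7 did not pass, with a median log2 fold change of -0.19; at an unadjusted p under 0.05, 7 were lower and 0 higher (limma). Elf5, a factor of principal cells, fell 1.84-fold, from values of 8.67, 8.60 and 8.35 to 7.66, 7.67 and 7.66 (limma, adjusted p = 0.000326). Gata2, a factor that promotes expression of vasopressin pathway genes, fell 1.31-fold, and Gata3, needed for the ureteric bud, fell 1.24-fold. The fourth was Grhl3, of the related grainyhead family, named here to complete the count, with a log2 fold change of -0.93 (limma, adjusted p = 0.016); its call was lost without mutant replicate 2 or mutant replicate 3 (adjusted p up to 0.0594).

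**Figure D4:**
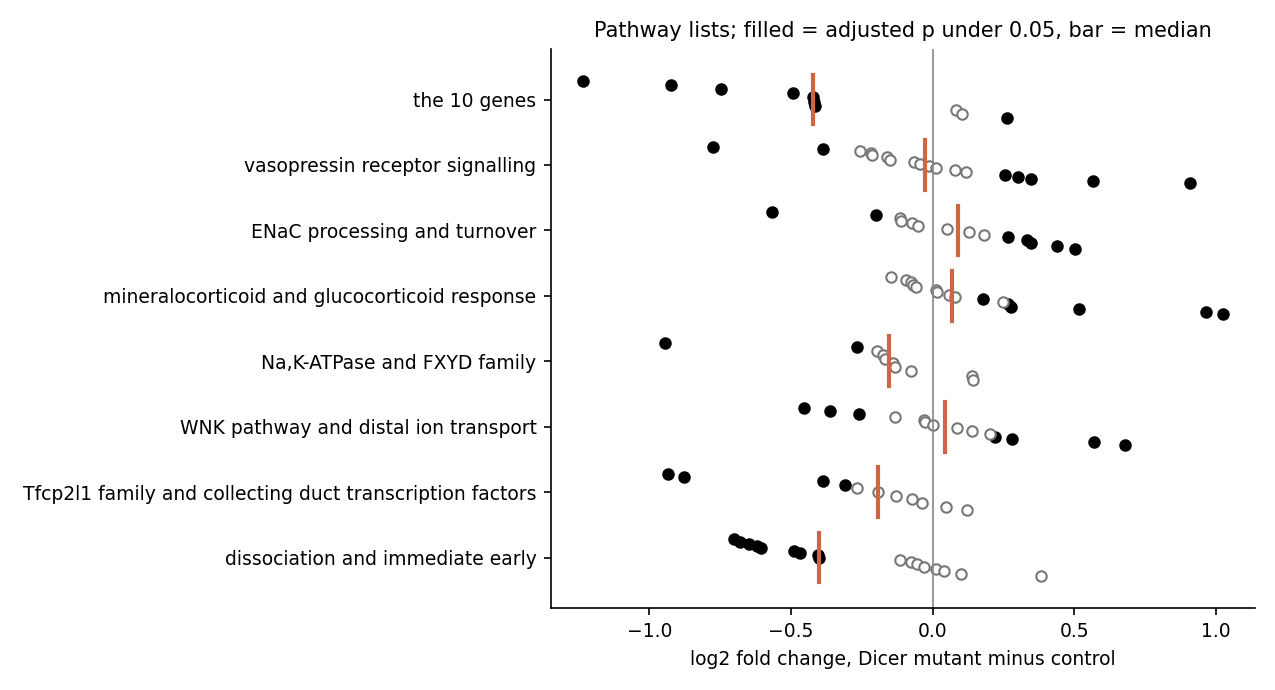
Log2 fold changes (Dicer mutant minus control) of the 10 genes and of the measured genes of 7 related lists, 1 point per gene; filled points passed an adjusted p of 0.05 and the bar is the median of the list. The 10 genes have a median of -0.42, the dissociation and immediate early list one of -0.40, and the other medians lie between -0.19 and 0.09.

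Markers of other cell types moved with some of these genes. Of 6 measured urothelial markers 5 fell, with a median log2 fold change of -1.03; their mean level was 7.91 to 8.39 on the control arrays and 7.14 to 7.40 on the mutant arrays. ENaC subunits and Grhl3 are also expressed in urothelium, and the part of such cells in the falls of Scnn1b and Scnn1g was not tested. Of 8 markers of early nephron and loop or distal tubule, segments that share Avpr2, Nr3c2 or Hsd11b2 with the collecting duct, 1 rose and 2 fell. Those that fell were Pax8 (log2 fold change -0.37) and Cldn10 (-0.48), and both calls were kept in every fit with an array left out. The call of the gene that rose, Jag1, was lost in 5 fits with an array left out. The mean level of the 8 markers was 8.03 to 8.23 in control and 7.99 to 8.23 in mutant cells. The distal transporters Slc12a1 and Slc12a3 had log2 fold changes of 0.20 and -0.03 and means below 7.52 in both groups. Of 6 intercalated cell markers, 1 rose, Kit, and 5 did not pass.

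Among nephron progenitor markers, 2 of 6 rose, Six2 (log2 fold change 3.29) and Tmem100 (0.82), and 1 fell, Osr1 (-0.67). Their mean level was 6.93 to 6.98 on the control arrays and 7.49 to 7.57 on the mutant arrays. The defining markers Cited1 and Eya1 did not pass. Cited1 missed narrowly, at 0.27 with all mutant arrays above all control arrays (limma, adjusted p = 0.0503). Eya1 had -0.05 with overlapping groups (limma, adjusted p = 0.675). Of 7 proximal tubule markers, 1 rose, Lrp2 (1.05), and 2 fell, Slc34a1 (-0.69) and Hnf4a (-0.31), with a mean level of 6.47 to 6.89 in control and 6.56 to 6.60 in mutant cells. Of 5 smooth muscle markers, 1 of them among the brighter genes, 3 fell, Acta2 most (-0.72), where 13.9% of all genes were called lower. The mean level of the 5 was 6.85 to 7.02 in control and 6.55 to 6.65 in mutant cells. Podocyte and leukocyte markers each had 1 lower call, and stromal, endothelial and erythroid markers had 0 at an adjusted p of 0.05 (limma; at an unadjusted p under 0.05, 1, 1 and 0 were lower and 0 higher). With an array left out, the call was lost in 5 fits for Hnf4a, 4 each for Myh11 and Cnn1, 3 for Slc34a1, 2 for Osr1 and 1 for Acta2. The podocyte marker Synpo lost its call in 3 such fits and the leukocyte marker Ptprc in 2. The part of any of these cell types in the values of the 10 genes was not tested.

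Single arrays also ran high or low across the members. Control replicate 3 was the lowest control array for 9 of the 10 genes, against 41.1% of all genes, and was the highest for 0 of them. Mutant replicate 1 was the highest mutant array for 8 of the 10 genes, against 23.8% of all genes, and mutant replicate 3 the lowest for 8, against 35.9%. The 7 genes that fell did so in each fit that left out a single array.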

How the data were processed

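Ureteric bud cells sorted on YFP were profiled on 6 arrays (3 control, 3 Dicer mutant). The deposited values are log2 expression values, 1 per probe set and array. RMA and affy are named in the submitters' processing notes, without versions; RMA equalises array distributions and compresses changes of dim genes. Of 23309 probe sets, 20728 had 1 symbol in the platform annotation, 1174 several and 1407 were not listed. The brightest single-symbol probe set of each gene was kept (19296 genes, no intensity filter). Genotype was the only term of the linear model (limma 3.58.1, R 4.3.3, lmFit and eBayes), with Benjamini-Hochberg adjustment over all genes and a threshold of 0.05; tests were two-sided. The fit was tested on simulated data. Gene pairs were compared by exact permutation (scipy 1.17.1).

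The 10 genes, 7 pathway lists, marker lists and motifs were chosen with earlier results of these data known. From each pathway list, up to 3 genes past the threshold in each direction were named by smallest p, plus the 5 genes most like Avpr2; others are marked where named. Genes on a list that had no single-symbol probe set are not analysed here. Lists are described by counts and medians. The fit was repeated with a block for replicate number, without each array in turn, after quantile normalization or median centring, without dim genes, on averaged probe sets, with array weights, and with robust variances that follow a trend. Figures used matplotlib 3.10.9.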

Additional observations from a re-analysis of the deposited data

How the results depend on the processing

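Under 13 alternatives, 100 of 102 values of the 8 called genes kept their direction and their call. The other 2 were those of Tfcp2l1, which did not pass without mutant replicate 1 or 2; with single arrays left out its log2 fold change ran from 0.22 to 0.30. By construction, the replicate block, the removal of dim genes, averaged probe sets and the variance trend left the fold changes of the called genes as they were. Those fits could change only the call, and averaging left even the array values of these genes unchanged. Scnn1a, not called in any fit, ran from -0.093 to 0.22 with single arrays left out. It lay below 0 without control replicate 3 (-0.093) and without mutant replicate 1 (-0.013). The number of the 10 genes past the threshold was 7 or 8 with an array left out and 6 of 8 with dim genes left out, where Nr3c2 and Sgk1 were not tested. With the replicate number as a block, 8 of the 10 passed and 3603 genes in all, against 4975. The deviations of same-numbered arrays correlated at -0.19, -0.10 and -0.22, and those of differently numbered arrays at -0.01 to 0.18. Deviations within a group of 3 arrays sum to 0, which constrains these values. They cannot settle whether the numbers pair the samples, and the labels do not say. Of the list counts, that of the Na,K-ATPase and FXYD family moved most in proportion, from 2 to 4 genes with a variance trend and robust eBayes. The others ran over the alternatives from 6 to 10 (immediate early, 9 as reported), 5 to 9 (ENaC processing, 7), 3 to 6 (Tfcp2l1 family, 4), 5 to 8 (WNK, 7), 6 to 8 (vasopressin signalling, 7) and 5 to 7 (corticosteroid response, 6). Spint2 did not pass under the replicate block, quantile normalization or median centring either. The 5 differences between genes kept their direction under quantile normalization. That of Hsd11b2 minus Nr3c2 moved from a change of -0.003 to one of -0.096. Averaging probe sets could not alter these differences, because each of the 10 genes had a single probe set. The number of arrays, 3 in each group, limits the precision of every value.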
